A study of Mus musculus with 6 samples.

Results

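The Hox genes of the ventral lumbar spinal cord are described here, as transcript levels across the body-axis order of their paralog numbers. Members were all genes of the deposited table whose symbol is Hox, a cluster letter (a to d) and a paralog number, which gave 37 of 28162 genes. Of these, 31 passed the filter on low values (10 normalized counts or more in 3 libraries or more), as did 17480 genes in all. The mouse annotation GENCODE M21 (build mm10) lists 39 Hox genes, and Hoxd4 and Hoxd12 were not analysed here. The samples came from SOD1G93A mice, which carry a mutant human superoxide dismutase 1 transgene and are a model of amyotrophic lateral sclerosis. In the AAV-NDNF group (n = 3 libraries) an adeno-associated virus with the gene of the secreted protein NDNF was injected intrathecally on day 74, and in the AAV-GFP group (n = 3) the virus carried green fluorescent protein. Polyadenylated RNA of the ventral part of the lumbar cord was sequenced on day 104 in both groups, so every library comes from a mutant, virus-injected animal. The libraries are called biological replicates, and p-values measure the spread between them. Neither the promoter of the viral transgene nor the segments taken within the lumbar cord are given in the sources used here.

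Hox genes encode homeodomain transcription factors that lie in 4 clusters, and within a cluster the gene order follows the head-to-tail order of expression. Low paralog numbers are expressed from the hindbrain backwards, and higher numbers begin further and further down the cord, so that a piece of cord carries a combination that marks its level. The combination is kept in the adult cord and is known above all for assigning motor neurons to columns and pools, with paralogs 10 and 11 in lumbar segments and paralogs 12 and 13 near the end of the cord. Values below are normalized read counts, that is reads divided by a size factor per library. Levels are compared between genes only per kilobase of annotated exon, written as normalized counts per kb. Differences between groups are log2 fold changes of the normalized count + 1, AAV-NDNF over AAV-GFP, so that a positive value means a higher level after AAV-NDNF. SDs are over the 3 libraries of a group.

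The reads assigned to genes came to between 15335789 and 20060987 per library, of which 8370 to 12763 were Hox reads. The delivered gene Ndnf had 5286, 7077 and 674 normalized counts in AAV-NDNF libraries 1 to 3, against 171, 128 and 158 in AAV-GFP libraries 1 to 3. All AAV-NDNF libraries were above all AAV-GFP libraries, and AAV-NDNF replicate 3 was far below the others of its group. Among motor neuron markers all 10 of 10 passed the filter, and their summed level was 11864 to 12794 in AAV-NDNF and 11241 to 12907 in AAV-GFP libraries. Of the forebrain and midbrain markers, 5 of 8 were listed and 1 (Neurod6) passed the filter. One library stood apart in the Hox genes, AAV-GFP replicate 2, and results that rest on it are given with and without it.

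By level, the profile was that of paralogs 4 to 10 with a steep drop after them. Summed over genes and averaged over the 6 libraries, paralog 8 genes held 1027 normalized counts per kb (23.8% of all Hox transcript per kb), paralog 10 genes held 1002 (23.2%) and paralog 9 genes held 663 (15.4%). Paralog 7 followed with 459 (10.7%), whereas paralog 11 held 124 (2.88%) and paralog 1 held 14.8 (0.344%). Paralog 12, with Hoxc12 as its only member, was at 1.71 and paralog 13 at 0.959 normalized counts per kb. Among the listed members the position on the axis was thus marked by abundant paralog 10 transcript, little paralog 11 and next to no paralog 12 or 13. The clusters contributed similar amounts per kb for A (27.8%), B (27.7%) and C (27.3%), and D held 17.1% with its 7 listed genes. The lengths include exon bases shared with other annotated genes, so these levels are approximate. Over unshared bases only, Hoxa11 stood at 111 in place of 72.0 normalized counts per kb, and Hoxb3 at 141 in place of 66.2.

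**Figure D1:**
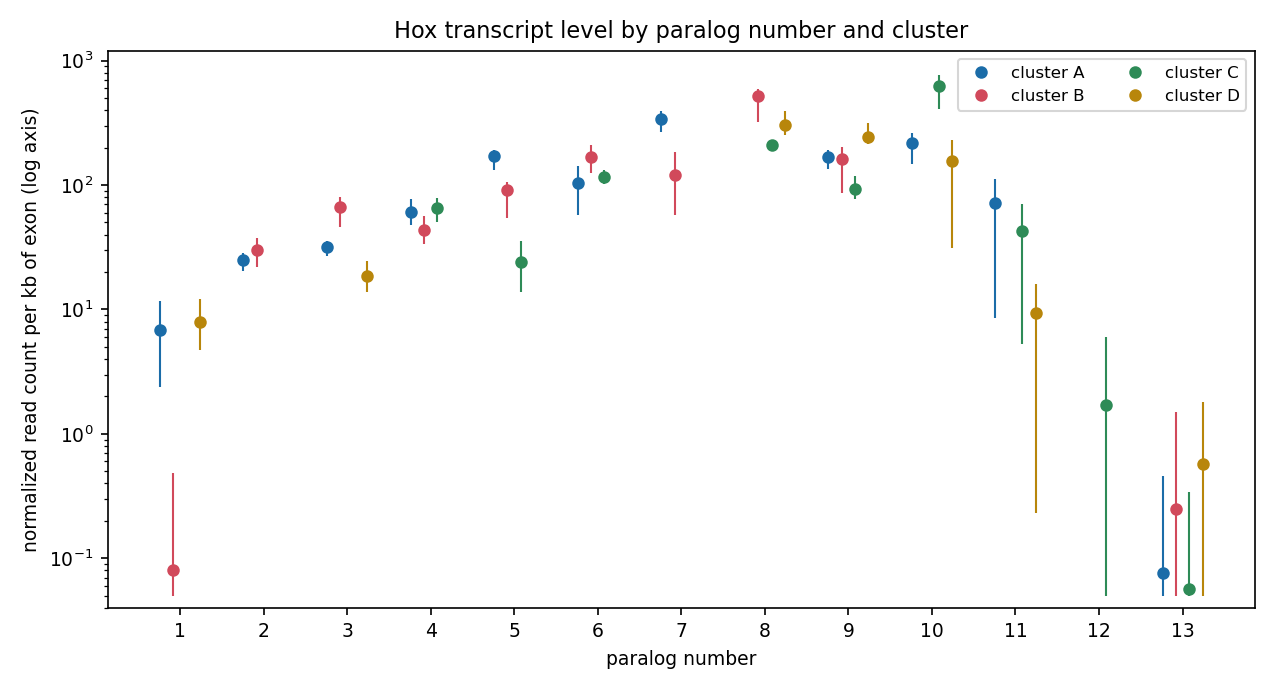
Normalized counts per kb of exon for each Hox gene, grouped by paralog number along the horizontal axis, on a log axis. Points are means of the 6 libraries coloured by cluster and bars run from the lowest to the highest library (a lowest library at 0 is drawn at the foot of the axis). Levels climb to paralogs 8 and 10 and drop at paralog 11, where the bars are long.

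The 6 members that did not pass the filter were Hoxb1, Hoxc12, Hoxa13, Hoxb13, Hoxc13 and Hoxd13. None of them had more than 7 reads in any library, which was the count of Hoxc12 in AAV-GFP replicate 1. Hoxd13, whose human counterpart is a digit malformation gene, had 1, 4 and 2 reads in AAV-NDNF libraries 1 to 3 and 0, 0 and 1 in AAV-GFP libraries 1 to 3. For a library with 0 reads of a gene the exact Poisson 95% interval reaches 3.69 reads, so absence cannot be claimed for these genes.

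The promoters of 5 members are shown because these genes span the contrast described below: Hoxd11, Hoxa11 and Hoxd10 are among the 4 genes furthest below the other libraries in AAV-GFP replicate 2, Hoxd9 is not, and Hoxb8 is the most abundant gene of its cluster. Each window runs from 250 bases before to 50 bases after the annotated start in RefSeq (GRCm38.p6) and is written in the direction of the gene. The positions are chr2:74679308-74679607 (plus strand) for Hoxd11, chr6:52245761-52246060 (minus strand) for Hoxa11, chr2:74691641-74691940 (plus strand) for Hoxd10, chr2:74697513-74697812 (plus strand) for Hoxd9 and chr11:96281655-96281954 (plus strand) for Hoxb8. Capitals mark TTTATG or TTTACG on either strand (read as CATAAA or CGTAAA on the other strand), letters that CDX and posterior Hox proteins are known to bind.
Hoxd11: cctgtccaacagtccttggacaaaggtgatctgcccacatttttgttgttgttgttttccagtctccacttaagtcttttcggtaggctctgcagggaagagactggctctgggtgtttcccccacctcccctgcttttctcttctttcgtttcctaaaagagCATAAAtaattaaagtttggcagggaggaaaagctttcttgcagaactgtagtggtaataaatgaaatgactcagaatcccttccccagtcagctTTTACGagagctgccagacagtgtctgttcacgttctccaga
Hoxa11: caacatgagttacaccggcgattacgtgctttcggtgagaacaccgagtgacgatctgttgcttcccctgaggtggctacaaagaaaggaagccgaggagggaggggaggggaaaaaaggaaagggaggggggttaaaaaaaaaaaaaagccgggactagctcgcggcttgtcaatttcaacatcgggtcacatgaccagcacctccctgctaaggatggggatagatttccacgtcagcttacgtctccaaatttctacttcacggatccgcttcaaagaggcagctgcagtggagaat
Hoxd10: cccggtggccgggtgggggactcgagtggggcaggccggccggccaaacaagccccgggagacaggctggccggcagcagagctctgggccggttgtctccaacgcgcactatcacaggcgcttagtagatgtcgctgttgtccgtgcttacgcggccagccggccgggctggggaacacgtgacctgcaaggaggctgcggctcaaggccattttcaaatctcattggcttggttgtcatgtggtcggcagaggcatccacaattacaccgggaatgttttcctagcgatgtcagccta
Hoxd9: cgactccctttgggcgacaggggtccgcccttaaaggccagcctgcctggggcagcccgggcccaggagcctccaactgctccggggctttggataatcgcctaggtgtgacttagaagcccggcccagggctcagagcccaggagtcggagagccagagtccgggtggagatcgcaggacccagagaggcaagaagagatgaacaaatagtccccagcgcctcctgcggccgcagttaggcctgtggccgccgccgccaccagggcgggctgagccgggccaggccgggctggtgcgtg
Hoxb8: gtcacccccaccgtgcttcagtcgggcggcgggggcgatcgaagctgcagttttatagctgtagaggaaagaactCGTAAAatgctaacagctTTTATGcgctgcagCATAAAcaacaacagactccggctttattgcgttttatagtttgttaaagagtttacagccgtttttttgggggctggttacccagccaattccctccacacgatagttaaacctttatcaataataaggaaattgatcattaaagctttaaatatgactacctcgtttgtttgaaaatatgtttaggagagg
The Hoxd11 and Hoxb8 windows shown held both words, Hoxd11 with 1 TTTATG and 1 TTTACG and Hoxb8 with 2 and 1, and the windows of Hoxa11, Hoxd10 and Hoxd9 held neither. Among all 32851 promoter windows of the same length, 11.9% held TTTATG, 3.03% held TTTACG and 0.320% held both. The CG dinucleotides, the letters of CpG islands on which Polycomb repressors gather, numbered 4 in the Hoxd11 window shown, 15 in Hoxa11, 22 in Hoxd10, 20 in Hoxd9 and 13 in Hoxb8, against a median of 7 over all windows. RefSeq lists a second start of Hoxd11, whose window (chr2:74682073-74682372, plus strand) held 0 TTTATG, 0 TTTACG and 25 CG dinucleotides, so the counts of Hoxd11 depend on the start taken. Windows were available for 20 of the 37 members, 22 windows in all, and no other Hox window held both words. Of the windows not shown, Hoxa7 held 2 TTTATG and Hoxd3 held 1, and the rest held neither word. A match is a description of the letters only.

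Hoxc10 (chromosome 15, 102966796 to 102971893, plus strand, mm10), a determinant of lumbar motor neuron identity, was the most abundant Hox transcript at 627 normalized counts per kb. It had 1052, 1467 and 1341 normalized counts in AAV-NDNF libraries 1 to 3, against 1312, 784 and 1221 in AAV-GFP libraries 1 to 3. The groups overlapped, and AAV-GFP replicate 2 was the lowest of the 6. Hoxa10, which acts with Hoxc10 and Hoxd10 in lumbar motor neurons, had 609.8, 795 and 857 normalized counts in AAV-NDNF libraries, against 752, 483 and 804 in AAV-GFP libraries. Its lowest library was again AAV-GFP replicate 2, at 60.7% of the median of the other 5, and Hoxc10 stood there at 59.7%.

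Hoxd10 (chromosome 2, 74691924 to 74695105, plus strand) differed more between libraries than the other paralog 10 genes. It had 298, 420.1 and 280.4 normalized counts in AAV-NDNF libraries 1 to 3, against 285, 56.7 and 364 in AAV-GFP libraries 1 to 3. The value of AAV-GFP replicate 2 came from 58 reads (exact Poisson 95% interval 44.0 to 75.0 reads) and was 19.0% of the median of the other 5 libraries. The other 5 lay between 280.4 and 420.1, with the groups overlapping. Intervals here cover counting error only.

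The paralog 11 genes, which pattern the lumbosacral cord and also the kidney and the lower limb segments, showed the largest spread of all members. Hoxa11 (chromosome 6, 52242106 to 52245810, minus strand) had 138, 256 and 176 normalized counts in AAV-NDNF libraries 1 to 3, against 209, 19.5 and 189 in AAV-GFP libraries 1 to 3. Hoxc11 (chromosome 15, 102954427 to 102957708, plus strand) had 45.4, 90.1 and 99.7 in AAV-NDNF libraries, against 141, 10.7 and 134 in AAV-GFP libraries. Hoxd11 (chromosome 2, 74679557 to 74687016, plus strand) had 30.3, 64.2 and 25.2 in AAV-NDNF libraries, against 50.9, 0.977 and 67.3 in AAV-GFP libraries. In all 3 genes AAV-GFP replicate 2 was the lowest library by a wide margin, while the other AAV-GFP libraries were at or above most AAV-NDNF libraries, so the groups overlapped.

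Counted in reads, AAV-GFP replicate 2 held 20 reads of Hoxa11 (95% interval 12.2 to 30.9 reads), 11 of Hoxc11 (5.49 to 19.7) and 1 of Hoxd11 (0.0253 to 5.57). These were 10.3%, 10.8% and 1.92% of the median of the other 5 libraries in normalized counts. Ranked by how far AAV-GFP replicate 2 lay below the lowest other library on the log2 scale, Hoxd11 was number 3 of the 17480 genes tested, Hoxa11 number 19, Hoxd10 number 39 and Hoxc11 number 54. Hoxa11 shares 35.0% of its exon bases with the opposite-strand transcript Hoxa11os, and no source used here gives the strand setting of the counting, so its reads and those of Hoxa11os cannot be told apart with certainty. Of the 37 members, 15 share exon bases with another annotated gene and 9 with a gene on the opposite strand, with 5 sharing over 25%.

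**Figure D2:**
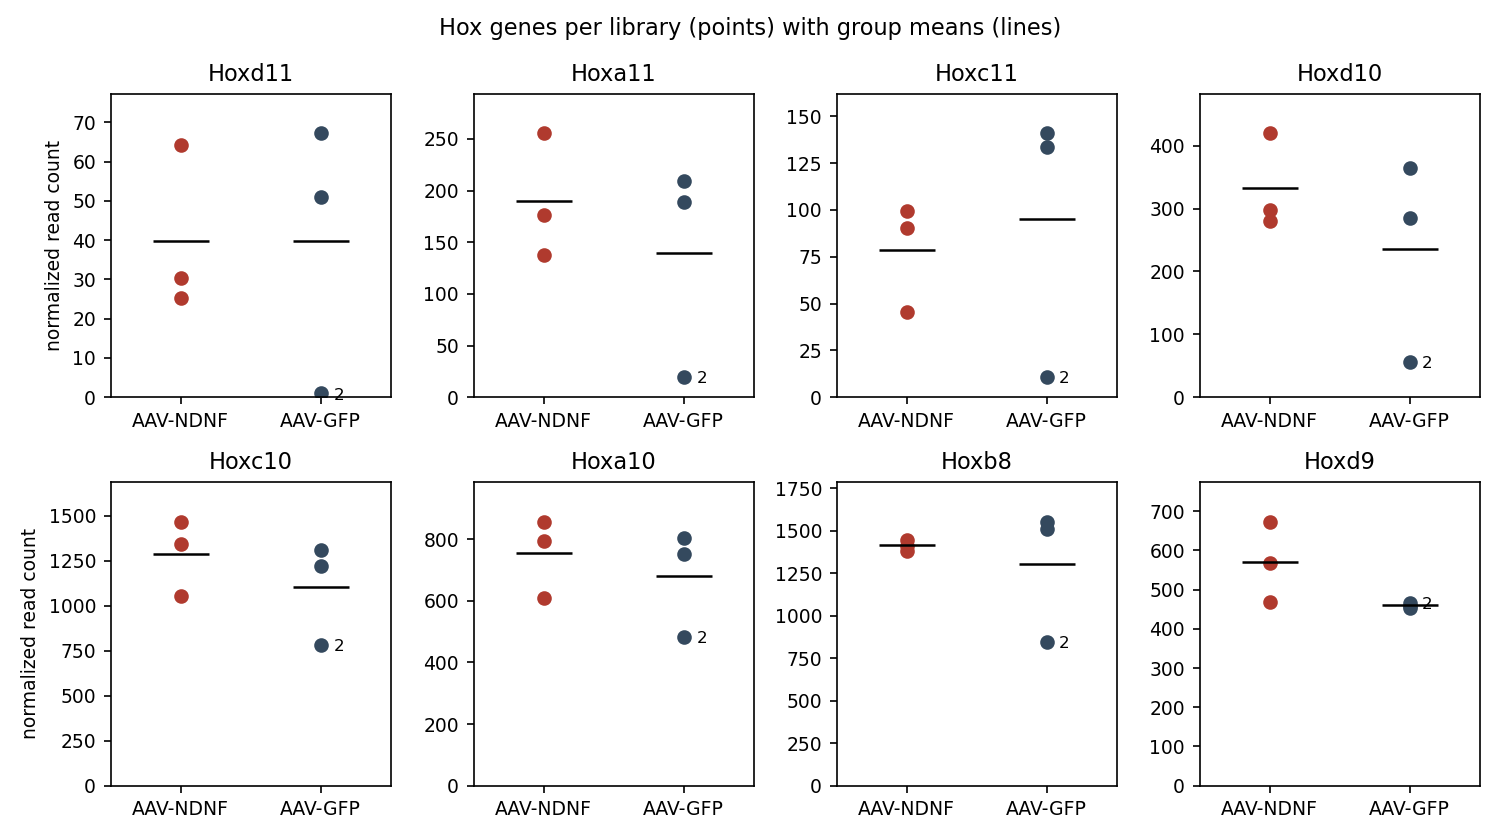
Normalized read counts of Hoxd11, Hoxa11, Hoxc11, Hoxd10, Hoxc10, Hoxa10, Hoxb8 and Hoxd9, 1 panel per gene, with AAV-NDNF libraries left and AAV-GFP libraries right, points for libraries and a line for the group mean. The point marked 2 is AAV-GFP replicate 2, the lowest in every panel except that of Hoxd9.

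The neighbours of the low genes on the chromosome did not all follow them. Hoxd9, of the paralog group that spans thoracic and lumbar segments and next to Hoxd10 in its cluster, had 468, 568 and 674 normalized counts in AAV-NDNF libraries 1 to 3, against 454, 466 and 459 in AAV-GFP libraries 1 to 3, and AAV-GFP replicate 2 stood at 99.5% of the median of the other 5. As a ratio within a library, Hoxd11 was 6.46%, 11.3% and 3.74% of Hoxd9 in AAV-NDNF libraries, against 11.2%, 0.210% and 14.7% in AAV-GFP libraries. Hoxd10 was 63.6%, 74.01% and 41.6% of Hoxd9 in AAV-NDNF libraries, against 62.7%, 12.2% and 79.3% in AAV-GFP libraries. The step from Hoxd9 to Hoxd10 to Hoxd11 was therefore steepest in AAV-GFP replicate 2, in normalized counts not corrected for length. In cluster A, Hoxa11 was 16.2%, 26.4% and 17.1% of Hoxa9 in AAV-NDNF libraries, against 21.2%, 2.59% and 17.8% in AAV-GFP libraries. In cluster C, Hoxc11 was 23.5%, 46.0% and 37.3% of Hoxc9 in AAV-NDNF libraries, against 49.1%, 5.73% and 61.9% in AAV-GFP libraries.

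Among the more anterior genes, the values of AAV-GFP replicate 2 differed by cluster. For paralogs 4 to 9 its median deviation from the mean of each gene over the libraries was −0.69 on the log2 scale in cluster B (6 genes), −0.17 in A (5), −0.18 in D (2) and −0.05 in C (5). Hoxb8, which is expressed in dorsal horn, had 1411, 1383 and 1448 normalized counts in AAV-NDNF libraries 1 to 3, against 1554, 846 and 1512 in AAV-GFP libraries 1 to 3. Hoxb7 stood in AAV-GFP replicate 2 at 42.9% of the median of the other 5, Hoxb9 at 47.2%, Hoxb5 at 51.5%, Hoxb8 at 58.4% and Hoxb6 at 69.9%. Hoxb4 went against the other cluster B genes, at 100.6%. In cluster C, Hoxc8, which takes part in assigning brachial motor pools, had 609, 588 and 628 normalized counts in AAV-NDNF libraries, against 570.5, 569.7 and 577 in AAV-GFP libraries, the smallest spread of any member. AAV-GFP replicate 2 was at 96.9% of the median of the other 5 for Hoxc8.

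The remaining abundant members spread less between libraries than the paralog 11 genes. Hoxa7 had 951, 1027 and 1117 normalized counts in AAV-NDNF libraries 1 to 3, against 769, 858 and 1133 in AAV-GFP libraries 1 to 3. Hoxd8 had 735, 871 and 1083 in AAV-NDNF libraries, against 742, 697 and 861 in AAV-GFP libraries. Both overlapped between groups. Hoxa9 had 854, 969 and 1032 in AAV-NDNF libraries, against 984, 753 and 1062 in AAV-GFP libraries. Hoxa5, a gene of the phrenic motor column at neck level, had 326, 349 and 358 in AAV-NDNF libraries, against 332, 247 and 324 in AAV-GFP libraries. Hoxb6 had 309, 303 and 412 in AAV-NDNF libraries, against 351, 245 and 355 in AAV-GFP libraries. In all 3 the groups overlapped and AAV-GFP replicate 2 was lowest.

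Across the members, AAV-GFP replicate 2 was the lowest of the 6 libraries at 19 of 31 Hox genes (61.3%), and at 20.2% of all genes tested. It was below 0.5 times the lowest other library at 4 of 31 (12.9%), namely Hoxd10, Hoxa11, Hoxc11 and Hoxd11, and at 1.33% of all genes tested. None of the other 5 libraries was that far below the rest at any of the 31. At the upper end, AAV-NDNF replicate 3 was highest at 10 of 31 (32.3%; 26.4% of all genes tested) and AAV-GFP replicate 3 at 9 (29.0%; 11.8%). The median SD over the 6 libraries was 0.29 on the log2 scale for Hox genes and 0.23 for all genes tested, and without AAV-GFP replicate 2 it was 0.24 and 0.21. An SD above 1 was reached by 4 of 31 Hox genes (12.9%), the same 4, and by 2.85% of all genes tested.

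**Figure D3:**
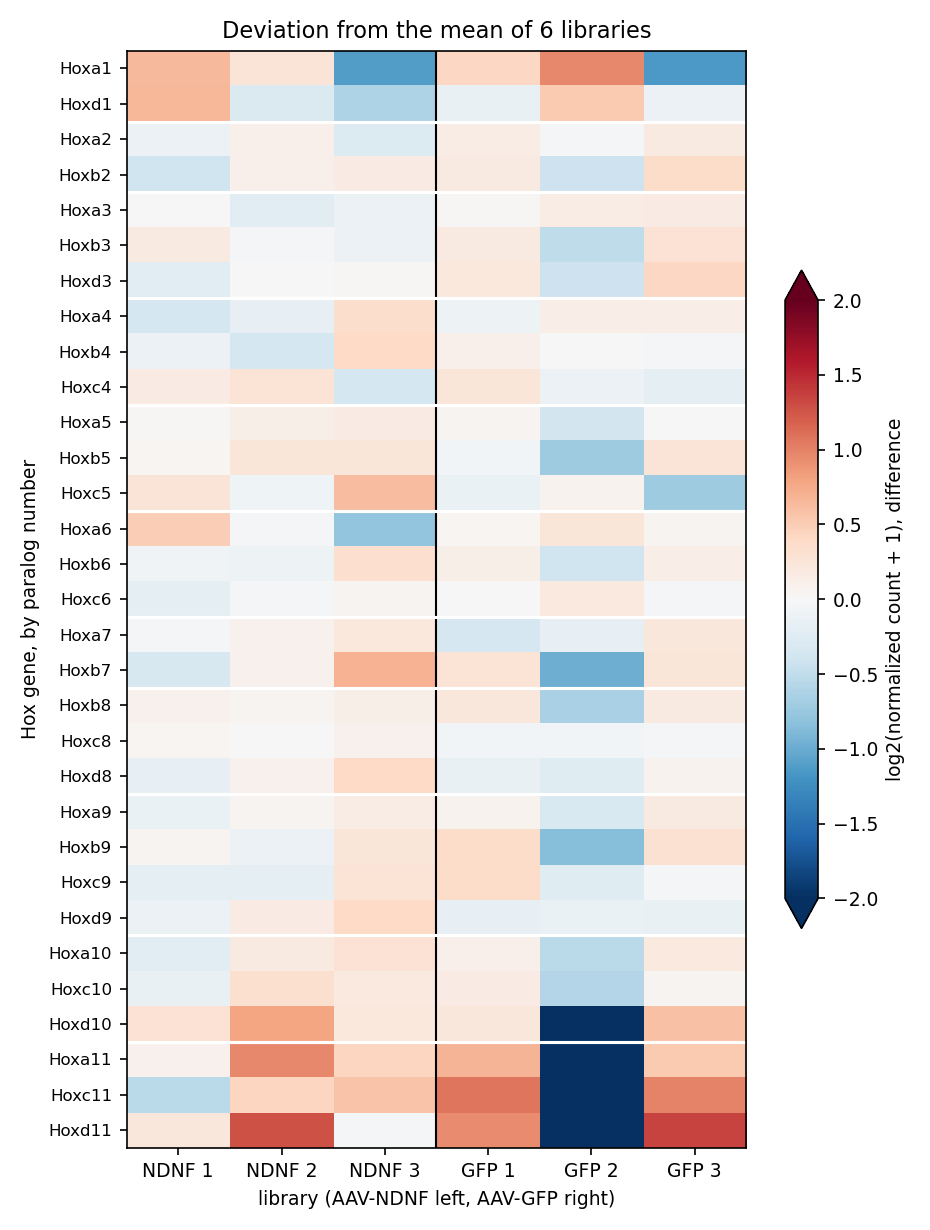
Log2 deviation of each library from the mean of the 6, for the 31 Hox genes that passed the filter, ordered by paralog number and cluster, with AAV-NDNF libraries left of AAV-GFP libraries. Blue is below and red above the mean, and colours end at −2 and 2. The column of AAV-GFP replicate 2 is lowest at paralogs 10 and 11 and also low in much of cluster B.

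The balance along the axis moved accordingly. Paralog 11 genes made up 2.20%, 3.71% and 2.73% of all Hox transcript per kb in AAV-NDNF libraries 1 to 3, against 3.86%, 0.445% and 3.56% in AAV-GFP libraries 1 to 3. Paralog 10 genes made up 22.1%, 26.9% and 23.0% in AAV-NDNF libraries, against 23.9%, 18.6% and 23.5% in AAV-GFP libraries. Paralogs 4 to 7 made up 31.2%, 28.5% and 30.4% in AAV-NDNF libraries, against 28.2%, 35.0% and 29.9% in AAV-GFP libraries. AAV-GFP replicate 2 thus held the smallest paralog 10 and 11 shares and the largest paralog 4 to 7 share of the 6 libraries. The mean paralog number weighted by level per kb was 7.74, 7.97 and 7.89 in AAV-NDNF libraries, against 7.90, 7.50 and 7.86 in AAV-GFP libraries. An index of the mean log2 value of the 6 tested genes of paralogs 10 and 11 minus that of the 18 tested genes of paralogs 4 to 9 was −0.68, 0.0028 and −0.58 in AAV-NDNF libraries, against −0.17, −2.43 and −0.07 in AAV-GFP libraries. The group means were −0.42 ± 0.37 in AAV-NDNF and −0.89 ± 1.33 in AAV-GFP libraries (SD, n = 3 each), a difference of 0.47 that was smaller than the AAV-GFP spread. Taken instead as the log2 ratio of summed normalized counts, which weights abundant genes, the index was −1.78, −1.35 and −1.68 in AAV-NDNF libraries, against −1.51, −2.19 and −1.57 in AAV-GFP libraries, and the difference was 0.15. Without AAV-GFP replicate 2 the difference of mean log2 values was −0.30.

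**Figure D4:**
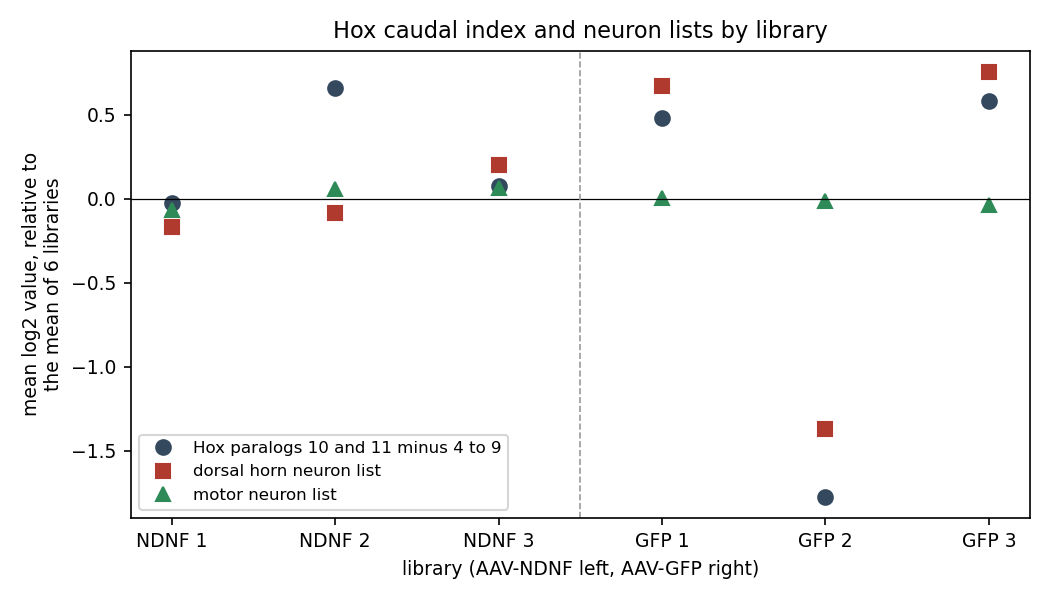
Mean log2 level of Hox paralogs 10 and 11 minus that of paralogs 4 to 9 in each library relative to the mean of the 6, with AAV-NDNF left of AAV-GFP, and the mean deviation of the dorsal horn and motor neuron marker lists on the same axis. AAV-GFP replicate 2 is lowest in the Hox index (−1.77 from the mean) and in the dorsal horn list (−1.37), while the motor neuron list stays between −0.07 and 0.06.

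Markers of dorsal horn neurons, which sit in the dorsal grey matter, moved with the same library. Of 20 such markers 18 passed the filter, and their mean log2 deviation from the mean of the 6 libraries was −0.17, −0.09 and 0.20 in AAV-NDNF libraries 1 to 3, against 0.67, −1.37 and 0.75 in AAV-GFP libraries 1 to 3. AAV-GFP replicate 2 was the lowest library at 12 of the 18, and the neuropeptide gene Tac2 was at 0 there. Trh, another neuropeptide gene, was also at 0 there. It did not pass the filter and had only 2.14 normalized counts in AAV-GFP replicate 3. The summed level of the list was 5268 to 7419 normalized counts in AAV-NDNF and 4643 to 6640.5 in AAV-GFP libraries. Motor neuron markers had mean deviations between −0.07 and 0.06 in all 6 libraries, although AAV-GFP replicate 2 was lowest at 3 of the 10 and highest at 4. General cord neuron markers stood at −0.24 in AAV-GFP replicate 2, which was the lowest library at 4 of the 5 tested. In the same library the mean deviation was 0.03 for markers of dorsal root ganglion neurons (3 tested), −0.10 for Schwann cells (4) and −0.02 for meningeal and vascular fibroblasts (7). It was −0.75 for skeletal muscle (2), 0.55 for cartilage and bone (3) and −1.23 for the single forebrain and midbrain marker tested. The part of these markers in the Hox values was not tested. In tissue of mixed cells, fewer cells of a type and less RNA per cell cannot be told apart.

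Non-coding transcripts of the clusters gave a further view of the same library. Hotair, a long non-coding RNA between Hoxc11 and Hoxc12, had 15.1, 6.76 and 23.0 normalized counts in AAV-NDNF libraries 1 to 3, against 35.7, 0 and 51.3 in AAV-GFP libraries 1 to 3. Hoxa11os, opposite to Hoxa11, had 125, 136 and 89.8 in AAV-NDNF libraries, against 127, 20.5 and 110.0 in AAV-GFP libraries. Both were lowest in AAV-GFP replicate 2, which was the lowest library at 5 of the 9 listed transcripts of this kind. Haglr, which shares 21 exon bases with Hoxd3 on the opposite strand, did not follow. It had 169, 196 and 225 in AAV-NDNF libraries, against 195, 216 and 178 in AAV-GFP libraries.

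The study's own comparison, AAV-NDNF against AAV-GFP, called no Hox gene. In limma over all 17480 genes, 0 of 31 Hox genes passed a Benjamini-Hochberg adjusted p of 0.05, where 0% of all genes tested passed, and each Hox gene had an adjusted p of 0.997. The delivered gene Ndnf was not called in limma either, and the lowest limma adjusted p of any gene was 0.214. In the authors' deposited table the DESeq2 adjusted p of Ndnf was 8.92e-05. The limma count of 0 therefore does not show that the Hox genes were unchanged. At an unadjusted p under 0.05 the count was 0 of 31 Hox genes and 818 of all genes (4.68%). The edgeR quasi-likelihood test on recovered reads and DESeq2 also called 0 of 31. The authors' deposited table gave the same count, with 0 of 31 Hox genes at a DESeq2 adjusted p under 0.05, where 54 of 20315 genes passed (0.266%). The fold change was above 0 at 20 of 31 Hox genes and at 50.1% of all genes tested, with a median of 0.11 for Hox genes and 0.00083 for all. Without AAV-GFP replicate 2 the Hox median was −0.064, with 12 above and 19 below 0.

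The groups did not overlap at 3 of 31 Hox genes, against 9.75% of all genes tested. In AAV-NDNF libraries Hoxd9 and Hoxc8 were higher (4.26% of all genes tested were higher without overlap) and Hoxa3 was lower (5.5%). Hoxd9 had the smallest p of the members, with a log2 fold change of 0.29 (SE 0.15, unadjusted p = 0.0715, limma). It averaged 569.9 ± 102.6 normalized counts in AAV-NDNF and 459.9 ± 5.90 in AAV-GFP libraries (SD, n = 3 each). Hoxa3, a gene of hindbrain and upper cervical levels that was still listed here, had 188, 162 and 174 in AAV-NDNF libraries 1 to 3, against 191, 210.1 and 213 in AAV-GFP libraries 1 to 3 (log2 fold change −0.23). Of its exon bases, 27.1% are shared with other annotated genes, so its counts are uncertain.

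The other members with small p overlapped between groups. Hoxc5, of the paralog group of the phrenic column, had 84.9, 66.4 and 109.5 normalized counts in AAV-NDNF libraries 1 to 3, against 64.3, 74.3 and 42.7 in AAV-GFP libraries 1 to 3, with a log2 fold change of 0.53 (SE 0.29, unadjusted p = 0.102, limma). Hoxb5 had 254, 293 and 292 in AAV-NDNF libraries, against 239, 150.5 and 297 in AAV-GFP libraries (log2 fold change 0.34). That of Hoxd8 was 0.21 and that of Hoxa5 was 0.21. None of them passed the test.

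Hoxa11, Hoxd11 and Hoxd10 had the largest limma fold changes of the 31 members, on the log2(normalized count + 1) scale, and the paralog 11 genes had the largest standard errors. The log2 fold change was 0.98 (SE 0.89) for Hoxa11, 0.98 (SE 1.26) for Hoxd11, 0.85 (SE 0.68) for Hoxd10 and 0.31 (SE 0.96) for Hoxc11. In the authors' deposited table the DESeq2 log2 fold changes of the same genes were 0.45 for Hoxa11, 0.0058 for Hoxd11, 0.50 for Hoxd10 and −0.28 for Hoxc11, and Hoxc5 was above all of them at 0.52. For Hoxc11 the sign of the log2 fold change was opposite to that of the group means, which were 78.4 ± 29.0 normalized counts in AAV-NDNF and 95.1 ± 73.2 in AAV-GFP libraries. For Hoxd11 the means were 39.9 ± 21.2 in AAV-NDNF and 39.7 ± 34.5 in AAV-GFP libraries. By paralog number the median limma log2 fold change was −0.15 for 1 to 3 (7 genes), 0.11 for 4 to 7 (11), 0.11 for 8 and 9 (7), 0.24 for 10 (3) and 0.98 for 11 (3). Without AAV-GFP replicate 2 these medians were −0.22, −0.04, −0.11, 0.01 and −0.66, and the sign turned at 12 of the 31 genes. Hoxc11 was then at −0.88 (SE 0.34, limma adjusted p = 0.887, unadjusted p = 0.0269), Hoxd11 at −0.66, Hoxa11 at −0.11 and Hoxd10 at 0.02. The direction of the paralog 11 difference thus turned with 1 AAV-GFP library.

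**Figure D5:**
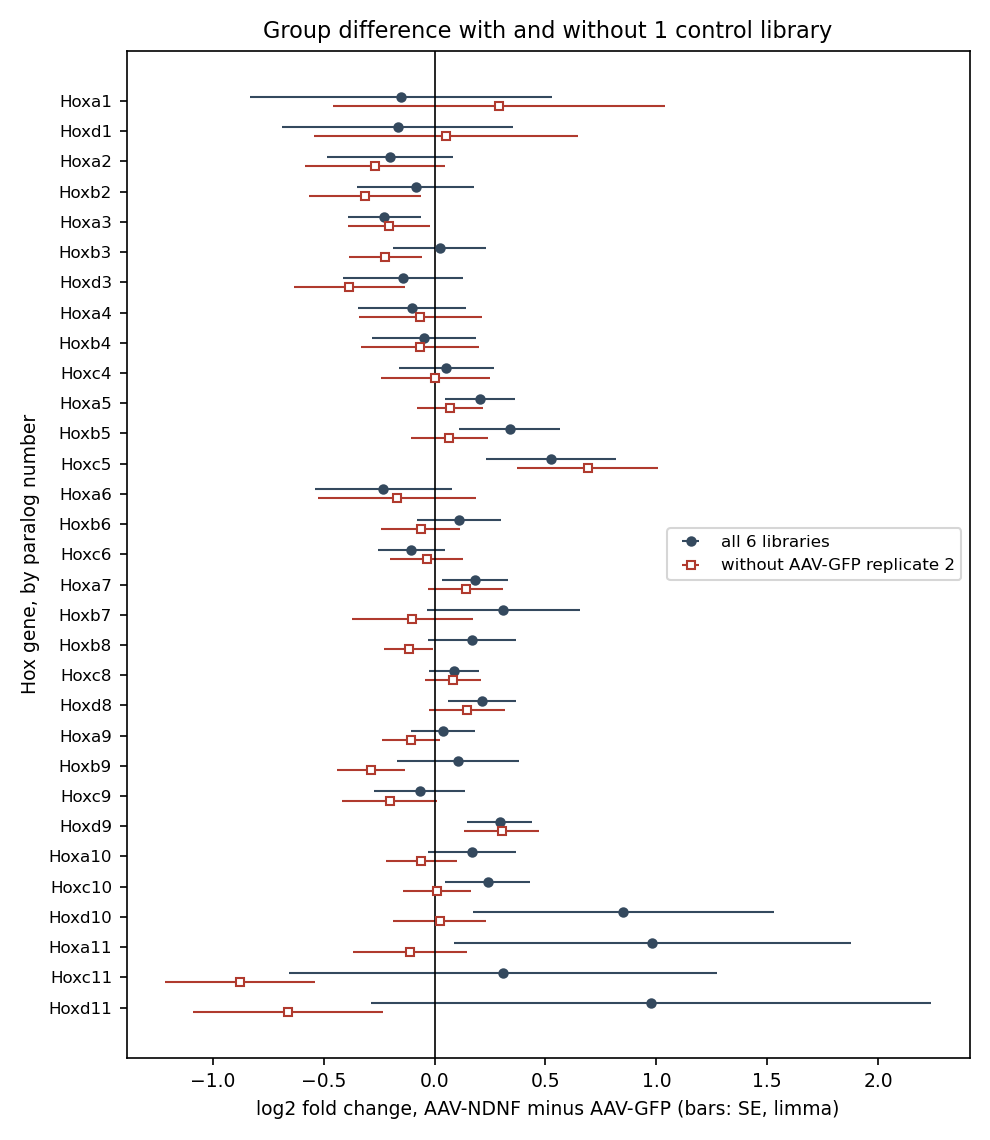
Log2 fold change (AAV-NDNF minus AAV-GFP, limma) of the 31 tested Hox genes ordered by paralog number, with all 6 libraries (filled points) and without AAV-GFP replicate 2 (open squares), and bars for the SE. With all 6 libraries the paralog 11 genes lie between 0.31 and 0.98, and without that library they lie between −0.88 and −0.11.

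The partners and regulators of Hox proteins were measured alongside, and none passed the limma test. The TALE class cofactors, which bind DNA together with Hox proteins, all passed the filter (9 of 9), with 7 above 0 and a median log2 fold change of 0.04. Meis2 had 1539, 1580.1 and 1577 normalized counts in AAV-NDNF libraries 1 to 3, against 1215, 1169 and 1453 in AAV-GFP libraries 1 to 3, with no overlap and a log2 fold change of 0.30 (SE 0.12, unadjusted p = 0.0255, limma adjusted p = 0.993). Of the Polycomb repressors that keep Hox genes silent, 16 of 16 were tested, with 8 above 0 and a median of −0.01. Of the trithorax activators that oppose them, 7 of 7 were tested, with 5 above 0 and a median of 0.03. Cdx, retinoic acid and Gdf11 pathway genes that act upstream of Hox genes in the embryo had 6 of 10 tested, with 2 above 0 and a median of −0.14. Of these 10, 7 were in the deposited table, and Cdx1, Cdx2 and Cdx4 were not.

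Genes that Hox proteins act through in motor neurons and at limb levels were tested at 9 of 9, with 6 above 0, a median of 0.13 and 0 called. Foxp1, the Hox accessory factor of limb motor neurons, had 397, 408 and 361 normalized counts in AAV-NDNF libraries 1 to 3, against 276, 340.1 and 392 in AAV-GFP libraries 1 to 3, and the groups overlapped. Runx1 had 66.4, 85.6 and 23.0 in AAV-NDNF libraries, against 83.0, 110.4 and 139 in AAV-GFP libraries, with a log2 fold change of −1.07 (SE 0.43, unadjusted p = 0.0283, limma adjusted p = 0.995). The Runx1 groups overlapped at AAV-NDNF replicate 2 and AAV-GFP replicate 1. Which cells of the mixed tissue carried the Runx1 transcript was not tested, so its value is not one of motor neurons alone. Foxp1 in AAV-GFP replicate 2 lay between the other libraries of its group.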

How the data were processed

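Per the labels' protocols, polyadenylated RNA from 6 ventral lumbar cords was sequenced. The tools cutadapt, HISAT2, HTSeq, DESeq2 and the build mm10 are named in the submitters' processing notes, whereas versions, annotation and strand setting are not given in the sources used here. The labels' treatments and titles gave the groups and replicate numbers. Per the file headers, the per-library values are a normalized signal, read counts that the authors divided by a size factor per library. Whole reads were recovered from them (100% of values, tolerance 0.001). The authors also deposited log2 fold changes, Wald scores and p-values with adjusted p-values. No per-sample columns of other samples were present (0).

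Values were tested as log2(normalized count + 1) in limma 3.58.1 (R 4.3.3) with a variance trend and robust variances, two-sided, for genes that reached 10 normalized counts in 3 libraries or more, with Benjamini-Hochberg adjustment over all 17480 genes. Alternatives were edgeR 4.0.16 on recovered reads (0 genes called), DESeq2 1.42.0, scaling, pseudocount, filter, replicate block, an index covariate and leaving out each library. Exact Poisson intervals are at 95%. Exon lengths came from GENCODE M21 and promoters from RefSeq (GRCm38.p6). The genes named are those of the 10 highest levels per kb, the 6 smallest p and paralogs 10 and 11, with up to 3 genes of each other list. Others (the untested members, Hoxb4, Hoxb7, Hoxb9, Hotair, Hoxa11os, Haglr, Tac2, Trh, Grp, Fam216b, Tfap2b, Evx1 and Evx2) were chosen after their values were seen. Members and lists were chosen with earlier results of these data known. Tested on simulated counts for this comparison (17261 genes), limma called 8.16% of genes given a log2 change of 0.5, 80% by 1, 98% by 2 and 100% by 4, with 10 false calls. The simulation gave every gene the same dispersion and held no library that stood apart. Its rates need not hold for genes that vary more, such as paralog 11 genes, and Ndnf was not called in the main limma test. Plots used matplotlib 3.10.9.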

Additional observations from a re-analysis of the deposited data

How the results depend on the processing

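No Hox gene was called under any of the 16 alternatives, and the lowest adjusted p among the limma alternatives was 0.465. Over all genes, against 0 called in the main limma test, 3 were called with no filter on low values, 6 with the replicate block, 22 with the Hox index as a covariate, 54 by DESeq2 and 818 at an unadjusted p under 0.05. Leaving out 1 library gave between 0 and 43 calls, with 43 without AAV-GFP replicate 2, 11 without AAV-NDNF replicate 3 and 1 without AAV-NDNF replicate 1. Same-numbered libraries deviated from their group means with correlations of −0.09, 0.05 and 0.08, and 2 of 6 libraries correlated best with their own number, so the numbers do not establish a pairing. The median Hox log2 fold change of 0.11 ranged from −0.064 to 0.20 when 1 library was left out, and the index difference of 0.47 from −0.30 to 0.88, both negative only without AAV-GFP replicate 2. Left-out ranges that crossed 0 were −0.059 to 0.31 for Hoxa10, −0.11 to 1.57 for Hoxa11, −0.11 to 0.14 for Hoxa9, −0.063 to 0.20 for Hoxb6, −0.12 to 0.32 for Hoxb8, −0.88 to 0.92 for Hoxc11 and −0.66 to 1.89 for Hoxd11. Hoxa9 (−0.022) and Hoxb6 (−0.031) were also negative without AAV-NDNF replicate 3. On recovered reads Hoxc11 was −0.29 in edgeR and −0.28 in DESeq2, and Hoxd11 was −0.0028 in edgeR, while Hoxa11 was 0.44 in edgeR and 0.45 in DESeq2 and Hoxd10 was 0.50 in both. As a log2 ratio of summed counts the index difference was 0.15. The cause was not tested. Paralog 11 genes rest on 1 to 234 reads per library, and with 3 libraries a group a log2 change of 0.5 was mostly missed in simulation.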

Other observations

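Some genes that are no Hox members were as low in AAV-GFP replicate 2 as the paralog 11 genes, and they were chosen after their values were seen. Tac2, a dorsal horn neuropeptide gene, lay furthest below the other libraries of all 17480 genes tested, with 21.03, 42.8 and 72.3 normalized counts in AAV-NDNF libraries 1 to 3, against 162, 0 and 137 in AAV-GFP libraries 1 to 3. Fam216b came second, with 37.0, 14.6 and 106 in AAV-NDNF libraries, against 30.4, 0 and 60.9 in AAV-GFP libraries. Tfap2b, a transcription factor gene, had 23.5, 21.4 and 42.7 in AAV-NDNF libraries, against 26.8, 0.977 and 32.0 in AAV-GFP libraries. Grp, a peptide gene of dorsal horn neurons, had 23.5, 22.5 and 103 in AAV-NDNF libraries, against 77.7, 2.93 and 80.1 in AAV-GFP libraries.

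At the 5′ ends of clusters A and D, next to the paralog 13 genes, lie the homeobox genes Evx1 and Evx2, which mark a class of ventral interneurons. Evx1 had 33.6, 56.3 and 18.6 normalized counts in AAV-NDNF libraries 1 to 3, against 24.1, 73.3 and 29.9 in AAV-GFP libraries 1 to 3. Evx2 had 18.5, 15.8 and 18.6 in AAV-NDNF libraries, against 20.5, 24.4 and 12.8 in AAV-GFP libraries. Both were highest in AAV-GFP replicate 2, where Hoxa11 and Hoxd11 of the same clusters were lowest. For Evx2 this rested on 25 reads there, against 23 in AAV-GFP replicate 1 and 22 in AAV-NDNF replicate 1, a gap too small to read. AAV-GFP replicate 2 was the highest library at 20.8% of all genes tested.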
